A study of Mus musculus with 10 samples.

Results

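The 10 genes described here encode the scaffold of the perineuronal net and the related proteoglycans of brain matrix. They were taken by symbol (Acan, Bcan, Ncan, Vcan, Hapln1, Hapln4, Tnr, Tnc, Ptprz1 and Has2) from the 55536 gene identifiers of a mouse count table, and each symbol matched 1 identifier. All 10 passed the filter on low counts and were among the 20301 genes tested. Acan, Vcan and Has2, however, reached the filter's level of 0.149 CPM (counts relative to library size) in only 2 of the 3 Il-17rb-Cre libraries. Those 3 genes therefore passed through the other groups. The filter works before TMM scaling, whereas all CPM values given below are scaled by TMM.

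Ribosome-bound RNA was profiled by translating ribosome affinity purification, in which an antibody pulls down the GFP-tagged ribosomes of marked cells. All libraries came from mouse brain, from a part of the somatosensory cortex that the labels abbreviate S1DZ, where AAV5-EF1α-Flex-EGFPL10a had been injected at 400 nl per side and 0.1 µl per minute, 4 weeks before. This virus expresses GFP-tagged ribosomal protein L10a from the EF1α promoter only where Cre is present, so the Cre driver and the cells the virus infects together set which cells were sampled. The genotypes were Il-17ra-Cre (3 libraries), Il-17rb-Cre (3 libraries) and Il-17rc-Cre (4 libraries), each named for the interleukin-17 receptor gene that drives Cre, and no group went without virus or Cre. The sex and age of the mice, and whether replicates were separate animals, are not stated in the labels, so p-values measure the spread between these libraries. Whole-tissue RNA was not analysed here, so RNA carried over from unmarked cells was not measured. The comparisons ask which transcripts were on the ribosomes of the cells marked by each driver.

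The perineuronal net is a lattice of extracellular matrix around the cell body and proximal dendrites of certain neurons, best known in cortex from parvalbumin interneurons. Long hyaluronan chains, spun out by membrane hyaluronan synthases, form its backbone. Chondroitin sulfate proteoglycans of the lectican family (aggrecan, brevican, neurocan and versican) bind hyaluronan at their N-terminal end, link proteins clamp that bond, and tenascins cross-link the lecticans at their C-terminal end. The looser matrix between other cells of the brain is built from the same parts, and glia as well as neurons make them.

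Total counts were 39692925 to 165844244 per library, with the largest in Il-17ra-Cre replicate 3. That library stood apart from the other 2 of its group: its excitatory neuron markers summed to 6718.1 CPM against 1564.4 and 1793.7, its oligodendrocyte markers to 5314.4 against 44452.6 and 30382.7, and Rpl10a, the gene of the tagged protein, was at 678.8 CPM against 58.7 and 70.9. In the other groups Rpl10a was at 602.4 to 669.6 CPM (Il-17rb-Cre) and 190.8 to 267.1 CPM (Il-17rc-Cre). The Il-17rc-Cre libraries also differed among themselves, replicates 1 and 3 from replicates 2 and 4, as several of the genes below show. Among the driver receptors, Il17rc was at 1.03 to 3.19 CPM in Il-17rb-Cre and at 20.3 to 41.2 CPM in the other groups, while Il17rb ranged from 0.614 to 0.872 CPM in Il-17rb-Cre and from 0.0667 to 3.75 CPM in the rest. Il17ra was called in no comparison by the edgeR test used below with all libraries. Without Il-17rb-Cre replicate 1 it was called higher in Il-17rb-Cre, by a log2 change of 0.74 against Il-17ra-Cre and 0.66 against Il-17rc-Cre.

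Against Il-17ra-Cre, 5 of the 10 genes were lower and 1 was higher in Il-17rb-Cre by edgeR's quasi-likelihood test at an adjusted p of 0.05, in a comparison where 40.7% of all tested genes were called (24.4% lower and 16.4% higher). Against Il-17rc-Cre, 7 were lower and 1 was higher, where 39.7% of all genes were called (21.9% lower and 17.7% higher). Between Il-17ra-Cre and Il-17rc-Cre none of the 10 was called by edgeR, where 2.18% of all genes were called (1.38% higher and 0.798% lower). In that last comparison 1 of the 10 had an unadjusted p under 0.05, DESeq2 called 1 lower and limma voom 1 higher. The median log2 fold change of the 10 was -2.55 in Il-17rb-Cre against Il-17ra-Cre, -3.50 against Il-17rc-Cre and -0.84 for Il-17ra-Cre against Il-17rc-Cre, beside medians of -0.09, 0.02 and 0.03 over all tested genes. The first 2 comparisons share the Il-17rb-Cre libraries, so their values are set side by side and do not support each other.

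Lower in Il-17rb-Cre in both comparisons were the hyaluronan synthase Has2, the lecticans Bcan and Vcan, the tenascin Tnc and the receptor phosphatase Ptprz1. Vcan and Has2 passed the filter only through the other groups, which favours a lower level in Il-17rb-Cre. Both are included in every count of lower members given here. Ncan and the link protein Hapln1 were lower against Il-17rc-Cre but did not pass against Il-17ra-Cre. The link protein Hapln4 was higher in both, and Acan and Tnr passed in neither. In pull-downs of this kind fewer cells of a type and less RNA per cell cannot be told apart. RNA carried over from unmarked cells cannot be told apart from these either.

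**Figure D1:**
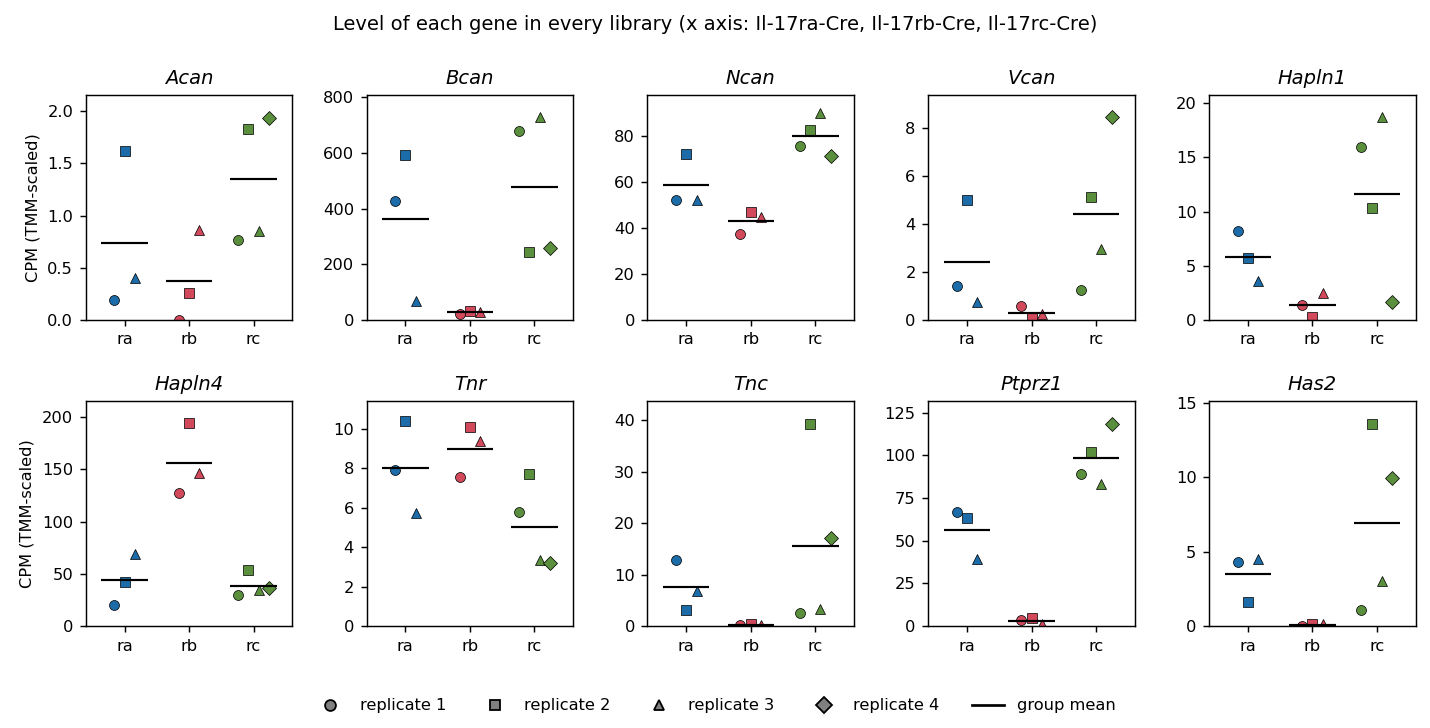
Level of each of the 10 genes in every library, in TMM-scaled CPM on linear axes that start at 0, by Cre driver (ra, rb and rc stand for Il-17ra-Cre, Il-17rb-Cre and Il-17rc-Cre), with a bar at the group mean and marker shapes for replicate numbers. Bcan, Vcan, Tnc, Ptprz1 and Has2 lie lower in all 3 Il-17rb-Cre libraries than in any other library, Hapln4 lies higher there, and Acan and Tnr overlap.

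The promoters of 4 of these genes are shown before their values. Bcan, Ptprz1 and Tnc were lower in Il-17rb-Cre in both comparisons, while Ncan, from the same family as Bcan, differed far less. They were picked with these values known, and any part of promoter sequence in the levels was not tested. The windows run from 250 bases before to 50 bases after the RefSeq start site, are taken from RefSeq's GRCm38.p6 annotation and are written 5′ to 3′ along the gene's strand. RefSeq windows were matched for 8 of the 10 genes, all but Hapln4 and Has2. Capitals mark matches on either strand to TATAA (the core of the TATA box), ACAAT (the core bound by SOX factors) and TTGGC (a half-site of nuclear factor I), and runs of capitals longer than 5 bases are overlapping or adjoining matches. Bcan is at chr3:88000307-88000606 on the minus strand, Ptprz1 at chr6:22875252-22875551 on the plus strand, Tnc at chr4:64046887-64047186 on the minus strand (1 of its 2 RefSeq windows) and Ncan at chr8:70120795-70121094 on the minus strand.
Bcan: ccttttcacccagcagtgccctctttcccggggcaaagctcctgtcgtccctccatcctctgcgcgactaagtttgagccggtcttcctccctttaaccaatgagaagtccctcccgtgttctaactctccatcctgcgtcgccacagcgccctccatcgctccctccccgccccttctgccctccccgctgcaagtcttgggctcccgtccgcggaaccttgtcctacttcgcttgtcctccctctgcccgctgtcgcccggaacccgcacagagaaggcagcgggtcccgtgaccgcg
Ptprz1: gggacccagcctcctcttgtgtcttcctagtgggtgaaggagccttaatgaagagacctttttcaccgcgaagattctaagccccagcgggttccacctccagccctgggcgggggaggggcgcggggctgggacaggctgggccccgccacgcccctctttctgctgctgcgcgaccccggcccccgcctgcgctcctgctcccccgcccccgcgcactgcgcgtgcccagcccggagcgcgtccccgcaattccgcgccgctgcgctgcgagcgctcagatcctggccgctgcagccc
Tnc: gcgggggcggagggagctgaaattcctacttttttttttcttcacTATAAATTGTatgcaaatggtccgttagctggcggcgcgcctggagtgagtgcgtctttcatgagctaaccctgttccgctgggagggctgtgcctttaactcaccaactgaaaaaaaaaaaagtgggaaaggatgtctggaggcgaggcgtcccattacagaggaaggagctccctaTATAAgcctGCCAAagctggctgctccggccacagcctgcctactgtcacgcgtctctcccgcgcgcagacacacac
Ncan: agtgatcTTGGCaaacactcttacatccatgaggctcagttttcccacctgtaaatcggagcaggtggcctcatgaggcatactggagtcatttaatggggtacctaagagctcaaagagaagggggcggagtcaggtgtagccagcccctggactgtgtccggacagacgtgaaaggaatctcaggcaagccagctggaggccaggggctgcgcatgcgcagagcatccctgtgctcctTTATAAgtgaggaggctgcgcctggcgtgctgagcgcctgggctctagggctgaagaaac

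The windows of Bcan and Ptprz1 held none of the 3 motifs, and were rich in G and C, at 64.0% and 71.7% against a median of 52.7% over all 32851 RefSeq windows. They held 24 and 29 CG dinucleotides, against a median of 7 and an upper quartile of 20 over all windows. The printed Tnc window was at 54.0% with 16 CG dinucleotides and carried TATAA 27 bases before its start site and again 205 bases before it, the latter directly followed by ACAAT on the minus strand, and TTGGC on the minus strand 18 bases before it. Ncan was at 56.7% with 9 CG dinucleotides, had TATAA on both strands within 10 bases before its start site and TTGGC 243 bases before it. Among all windows 24.9% held TATAA, 31% ACAAT and 46.7% TTGGC, so these matches are common and describe letters, not sites. Of the members not printed, Acan had 31 CG dinucleotides and 1 TTGGC, Hapln1 had 3 and 1 ACAAT, and Vcan (12) and Tnr (3) had no match to any of the motifs.

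Has2, a membrane enzyme that makes hyaluronan chains (ENSMUSG00000022367, GRCm38 chr15:56665627-56694539, minus strand), was near the limit of detection in Il-17rb-Cre. It was at 4.31, 1.65 and 4.54 CPM in Il-17ra-Cre replicates 1 to 3, at 0, 0.16 and 0.157 CPM in Il-17rb-Cre replicates 1 to 3, and at 1.05, 13.6, 3.03 and 9.96 CPM in Il-17rc-Cre replicates 1 to 4. All 3 Il-17rb-Cre libraries were below every other library, and within Il-17rc-Cre replicates 2 and 4 were the high ones. The 0 in Il-17rb-Cre replicate 1 allows up to 0.0563 CPM, the worth of 3 counts, and the other 2 libraries held 12 and 11 counts. Has2 was lower by a log2 change of -4.98 ± 1.15 (SE) against Il-17ra-Cre (edgeR adjusted p = 0.00642) and -5.95 ± 1.17 against Il-17rc-Cre (edgeR adjusted p = 0.00286). Its exons overlap those of the antisense gene Has2os over 4.3% of their length, and counts from unstranded libraries cannot be told apart there.

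The lectican brevican, Bcan (ENSMUSG00000004892, chr3:87987531-88000230, minus strand), a short lectican made by adult astrocytes and some neurons, had the highest mean level per kb of exon of the 10 in Il-17ra-Cre and Il-17rc-Cre. Its level was 426.2, 592.8 and 66.4 CPM in Il-17ra-Cre, 20.9, 31.6 and 27.7 CPM in Il-17rb-Cre, and 680.2, 243.1, 728.3 and 257.4 CPM in Il-17rc-Cre. The 3 Il-17rb-Cre libraries were close together and below all others, Il-17ra-Cre replicate 3 came nearest to them, and in Il-17rc-Cre replicates 1 and 3 were high and replicates 2 and 4 lower. The log2 fold change was -3.76 ± 0.75 against Il-17ra-Cre (edgeR adjusted p = 0.00303), a 13.5-fold lower level, and -4.16 ± 0.75 against Il-17rc-Cre (edgeR adjusted p = 0.00171), 17.8-fold lower. With Il-17ra-Cre replicate 3 left out the first value was -4.25 (edgeR adjusted p = 0.000157). With that library as the only one of its group, and assumed to vary like the other groups, it was -1.30 ± 0.60 and did not pass (edgeR adjusted p = 0.185).

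Neurocan, Ncan (ENSMUSG00000002341, chr8:70093085-70120873, minus strand), a lectican secreted by both neurons and astrocytes, varied least of the 10 over the libraries, on the log2 scale. It was at 52.1, 72.5 and 52.1 CPM in Il-17ra-Cre, 37.6, 46.8 and 44.7 CPM in Il-17rb-Cre and 75.9, 82.9, 90 and 71.4 CPM in Il-17rc-Cre. The Il-17rb-Cre libraries were again the lowest without overlap, but by a small margin, and Il-17ra-Cre lay between with 1 library overlapping the Il-17rc-Cre range. The difference from Il-17rc-Cre, a log2 change of -0.90 ± 0.17, passed (edgeR adjusted p = 0.00213). That from Il-17ra-Cre, -0.45 ± 0.18, did not (edgeR adjusted p = 0.064), although it passed without Il-17ra-Cre replicate 3 (-0.53, edgeR adjusted p = 0.0361), in DESeq2 (-0.47, adjusted p = 0.0383) and in limma voom (-0.57, adjusted p = 0.00692). Between Il-17ra-Cre and Il-17rc-Cre the log2 fold change was -0.44 ± 0.17 (edgeR adjusted p = 0.185), and DESeq2 called it at -0.51 (adjusted p = 0.0489).

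Versican, Vcan (ENSMUSG00000021614, chr13:89655312-89742509, minus strand), the longest lectican, known in brain from cells of the oligodendrocyte lineage and from vessels, was scarce everywhere. Levels were 1.43, 4.99 and 0.761 CPM in Il-17ra-Cre, 0.563, 0.107 and 0.229 CPM in Il-17rb-Cre and 1.23, 5.12, 2.95 and 8.45 CPM in Il-17rc-Cre. Il-17rb-Cre overlapped neither other group, but the gap between the lowest Il-17ra-Cre library and the highest Il-17rb-Cre library was small. Vcan was lower against Il-17rc-Cre by a log2 change of -3.90 ± 0.95 (edgeR adjusted p = 0.00884; -4.76 without Il-17rb-Cre replicate 1) and was 8.01-fold lower than in Il-17ra-Cre (SE 0.94 on the log2 scale, edgeR adjusted p = 0.0276; log2 fold change -3.80 without that replicate). The second call was lost without Il-17ra-Cre replicate 2 (-1.89, edgeR adjusted p = 0.124), without Il-17rb-Cre replicate 2 (-2.59, edgeR adjusted p = 0.0876) or without Il-17rb-Cre replicate 3 (-2.85, edgeR adjusted p = 0.0858).

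Aggrecan, Acan (ENSMUSG00000030607, chr7:79053483-79115099, plus strand), the lectican whose antibodies are a common stain for nets around parvalbumin interneurons, had the lowest mean level per kb of exon of the 10 in Il-17ra-Cre and Il-17rc-Cre, overlapping Vcan in both. It was at 0.189, 1.62 and 0.404 CPM in Il-17ra-Cre, 0, 0.254 and 0.858 CPM in Il-17rb-Cre and 0.761, 1.83, 0.854 and 1.94 CPM in Il-17rc-Cre. The 3 groups overlapped, and the counts behind these values were 0 to 137 per library. None of its differences passed: the log2 fold changes were -0.97 ± 1.21 for Il-17rb-Cre against Il-17ra-Cre (edgeR adjusted p = 0.556), -1.85 ± 1.17 against Il-17rc-Cre (edgeR adjusted p = 0.238) and -0.88 ± 1.13 between Il-17ra-Cre and Il-17rc-Cre (edgeR adjusted p = 0.761). Single libraries moved these values: the first was 0.31 without Il-17ra-Cre replicate 2, -0.38 without Il-17rb-Cre replicate 1 and -2.46 without Il-17rb-Cre replicate 3. The second was -3.40 without Il-17rb-Cre replicate 3, and the last -2.20 without Il-17ra-Cre replicate 2. With standard errors above 1 on the log2 scale, a 4-fold difference would lie within 2 standard errors.

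Divided by exon length, so that genes can be set beside each other, the 4 lecticans differed in make-up between libraries as well as in amount. Their sum was 112.2, 156.5 and 23.7 CPM per kb in Il-17ra-Cre, 10.4, 14.3 and 13.2 in Il-17rb-Cre and 178.1, 71.9, 192.0 and 74.1 in Il-17rc-Cre. Of this sum Bcan made up 93.4%, 93.2% and 69% in Il-17ra-Cre, 49.5%, 54.3% and 51.8% in Il-17rb-Cre and 94%, 83.2%, 93.3% and 85.5% in Il-17rc-Cre. Nearly all of the rest was Ncan, at 45.4% to 50.2% in Il-17rb-Cre and 5.92% to 30.6% elsewhere. Brevican and neurocan transcripts were thus near parity in Il-17rb-Cre and far from it in the other groups, with Il-17ra-Cre replicate 3 between them. Vcan and Acan each stayed below 1% of the sum in every library.

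**Figure D2:**
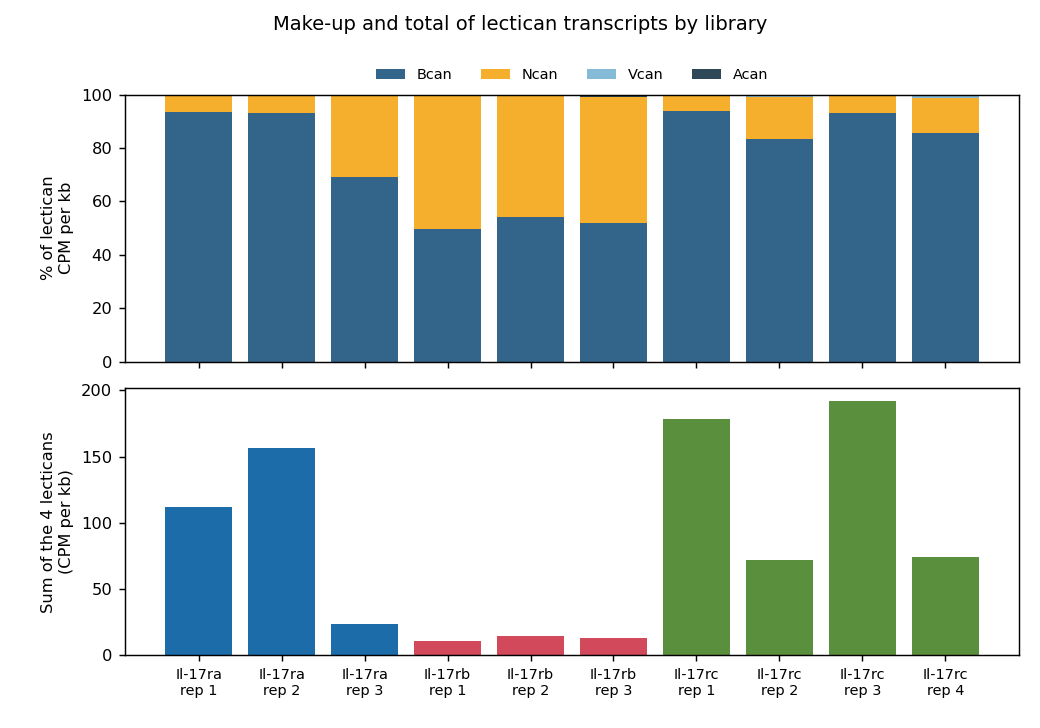
Share of each lectican in the summed lectican level (top, % of CPM per kb of exon) and that sum (bottom, CPM per kb) in each of the 10 libraries. Bcan and Ncan are near equal in the 3 Il-17rb-Cre libraries, where the sum is 10.4 to 14.3 CPM per kb, and Bcan makes up 69% or more in every other library.

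Against Il-17rc-Cre the 2 link proteins Hapln1 and Hapln4 went in opposite directions in Il-17rb-Cre. Hapln1 (ENSMUSG00000021613, chr13:89539796-89611652, plus strand), which locks lecticans to hyaluronan in cortical nets, was at 8.17, 5.71 and 3.54 CPM in Il-17ra-Cre, 1.33, 0.294 and 2.44 CPM in Il-17rb-Cre and 16, 10.3, 18.7 and 1.64 CPM in Il-17rc-Cre. Il-17rb-Cre lay below Il-17ra-Cre without overlap, whereas Il-17rc-Cre replicate 4 fell inside the Il-17rb-Cre range. Hapln1 was lower against Il-17rc-Cre by a log2 change of -3.10 ± 0.88 (edgeR adjusted p = 0.0179). Without Il-17rb-Cre replicate 1 that call was lost (-3.14, edgeR adjusted p = 0.0614), and without Il-17rb-Cre replicate 3 the value was -3.93 (edgeR adjusted p = 0.0222). It was also lost with only replicates 2 and 4 of Il-17rc-Cre (-2.18, edgeR adjusted p = 0.115). Against Il-17ra-Cre the log2 fold change of -2.09 ± 0.87 did not pass (edgeR adjusted p = 0.0793), but did in DESeq2 (-2.12, adjusted p = 0.023) and without Il-17rc-Cre replicate 4 (-2.09, edgeR adjusted p = 0.0317). Without Il-17rb-Cre replicate 3 it was -2.86 (edgeR adjusted p = 0.0599).

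Hapln4 (ENSMUSG00000007594, chr8:70083457-70090862, plus strand), a neuronal link protein known as a partner of brevican in nets and at synapses, was the only member called higher in Il-17rb-Cre. Its level was 20.3, 42.5 and 69.4 CPM in Il-17ra-Cre, 127.0, 194.7 and 146.6 CPM in Il-17rb-Cre and 30.2, 54, 34.3 and 36.2 CPM in Il-17rc-Cre. All 3 Il-17rb-Cre libraries were above every other, and Il-17ra-Cre replicate 3, with its higher excitatory neuron markers, came nearest. The log2 fold change was 1.82 ± 0.40 against Il-17ra-Cre (edgeR adjusted p = 0.00502), 3.54-fold higher, and 2.01 ± 0.37 against Il-17rc-Cre (edgeR adjusted p = 0.00178), 4.04-fold higher. With Il-17ra-Cre replicate 3 as the only library of its group the first was 1.18 ± 0.36 and did not pass (edgeR adjusted p = 0.0575). Without that library it was 2.32 (edgeR adjusted p = 0.000909).

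Each lectican gene has a link protein gene beside it on the chromosome, with no protein-coding gene between them. Ncan and Hapln4 lie 2.22 kb apart on chromosome 8, on opposite strands. The log2 fold changes of this neighbouring pair in Il-17rb-Cre against Il-17rc-Cre were -0.90 and 2.01, both past the test and opposite in sign. Vcan and Hapln1 lie 43.7 kb apart on chromosome 13, and both fell against Il-17rc-Cre. The neighbours of the other 2 lecticans belong to the wider matrix list: Hapln2 lies 21.5 kb from Bcan on chromosome 3, and Hapln3 ends 2 bases from the end of Acan on chromosome 7.

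The 2 tenascins also differed from each other. Tnc (ENSMUSG00000028364, chr4:63959785-64047015, minus strand), a large glycoprotein made by astrocytes and radial glia, was at 12.9, 3.21 and 6.84 CPM in Il-17ra-Cre, 0.225, 0.334 and 0.286 CPM in Il-17rb-Cre and 2.51, 39.3, 3.38 and 17.2 CPM in Il-17rc-Cre. The Il-17rb-Cre values, from 12 to 25 counts, were the lowest, and Il-17rc-Cre replicates 2 and 4 were above every other library. Tnc was lower by a log2 change of -4.75 ± 1.08 against Il-17ra-Cre (edgeR adjusted p = 0.006; -4.13 without Il-17ra-Cre replicate 1) and -5.78 ± 1.11 against Il-17rc-Cre (edgeR adjusted p = 0.00246; -4.76 without Il-17rc-Cre replicate 2). Its exons overlap 8030451A03Rik over 2.26% of their length.

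Tnr (ENSMUSG00000015829, chr1:159523769-159931729, plus strand), the tenascin of adult nets, which cross-links lecticans and is made by oligodendrocytes and some neurons, passed the edgeR test in no comparison. It was at 7.93, 10.4 and 5.75 CPM in Il-17ra-Cre, 7.53, 10.1 and 9.35 CPM in Il-17rb-Cre and 5.76, 7.69, 3.36 and 3.2 CPM in Il-17rc-Cre. The groups overlapped, with Il-17rc-Cre replicates 3 and 4 the lowest libraries. The log2 fold change was 0.16 ± 0.37 for Il-17rb-Cre against Il-17ra-Cre (edgeR adjusted p = 0.758) and 0.85 ± 0.35 against Il-17rc-Cre (edgeR adjusted p = 0.0785). The latter passed without Il-17rc-Cre replicate 2 (1.13, edgeR adjusted p = 0.0261) and in limma voom (1.05, adjusted p = 0.00492). For Il-17ra-Cre against Il-17rc-Cre it was 0.68 ± 0.35 (edgeR adjusted p = 0.34), called by limma voom alone (1.04, adjusted p = 0.034). Gm38039 overlaps 3.44% of the Tnr exons.

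Ptprz1 (ENSMUSG00000068748, chr6:22875502-23052916, plus strand) encodes a receptor tyrosine phosphatase that carries chondroitin sulfate, binds tenascins and the growth factor pleiotrophin, and is also released as phosphacan. It had the smallest adjusted p of the 10 in both comparisons with Il-17rb-Cre. Levels were 66.5, 63.3 and 39.4 CPM in Il-17ra-Cre, 3.72, 4.78 and 0.943 CPM in Il-17rb-Cre and 88.9, 102.0, 83.3 and 118.5 CPM in Il-17rc-Cre. The 3 groups separated without any overlap, Il-17rb-Cre lowest, Il-17ra-Cre next and Il-17rc-Cre highest. The log2 fold change was -4.16 ± 0.51 against Il-17ra-Cre (edgeR adjusted p = 0.000206), 17.9-fold lower, and -4.96 ± 0.52 against Il-17rc-Cre (edgeR adjusted p = 6.84e-05), 31.2-fold lower. Despite the separation, Il-17ra-Cre against Il-17rc-Cre did not pass, at -0.80 ± 0.43 (edgeR adjusted p = 0.362). In that comparison 6.65% of all genes were lower and 7.92% higher without overlap.

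**Figure D3:**
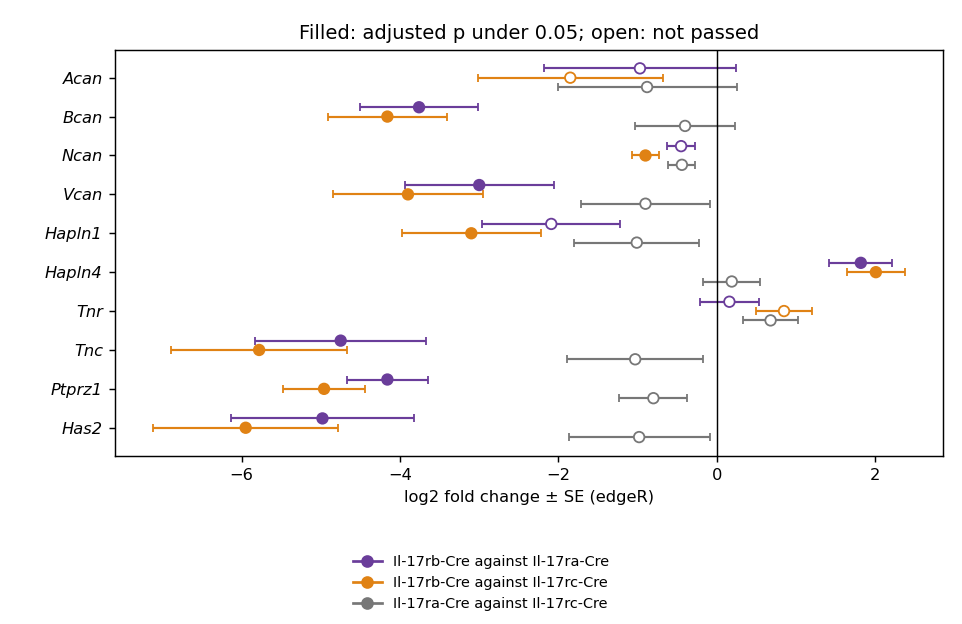
Log2 fold change of each gene in the 3 comparisons (edgeR, all 10 libraries in 1 model), with bars of ± SE and filled points where the adjusted p was under 0.05. The 2 comparisons with Il-17rb-Cre share its libraries. Hapln4 is the only filled point above 0, and no point of Il-17ra-Cre against Il-17rc-Cre is filled.

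Counting libraries in place of fold changes, 7 of the 10 genes were lower and 1 was higher in Il-17rb-Cre than in Il-17ra-Cre without overlap, where 29.2% of all genes were lower and 24.6% higher in that way. Against Il-17rc-Cre 6 were lower and 1 higher, where the shares over all genes were 25.5% and 27.5%. Il-17ra-Cre and Il-17rc-Cre were separated only for Ptprz1. The log2 fold changes of the other 9 genes between those 2 groups ran from -1.03 (Tnc, ± 0.86, edgeR adjusted p = 0.595) to 0.68 (Tnr). For Has2, Vcan and Hapln1 they were -0.98 ± 0.89, -0.90 ± 0.82 and -1.01 ± 0.79, with errors too wide to tell a 2-fold difference from none.

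The order of the 10 genes by level per kb of exon differed between groups. In Il-17rb-Cre Hapln4 led at 39.8 ± 8.88 CPM per kb (SD, n = 3), above Bcan at 6.58 ± 1.33 without overlap. Bcan and Ncan (5.98 ± 0.675) overlapped there, and Tnr followed at 0.699 ± 0.103, separated from the genes on either side of it. The other 6 genes were at 0.23 CPM per kb or less, each overlapping the next.

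In Il-17rc-Cre Bcan led at 117.4 ± 64.7 CPM per kb (SD, n = 4), above Ncan at 11.1 ± 1.13 without overlap. Ncan, Hapln4 (9.85 ± 2.68) and Ptprz1 (6.89 ± 1.1) each overlapped the next. Below a gap came Tnc, Hapln1 and Has2, at 2.01 ± 2.21, 1.98 ± 1.28 and 1.63 ± 1.38, whose spread over the 4 libraries was as large as the differences among them. In Il-17ra-Cre Bcan led at 89 ± 66.2 CPM per kb (SD, n = 3) but overlapped Hapln4 at 11.2 ± 6.27, because of replicate 3. Ncan (8.18 ± 1.64) and Ptprz1 (3.96 ± 1.04) came next, and Vcan and Acan were last there and in Il-17rc-Cre.

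Within Il-17rc-Cre the genes fell into different orders by library. Replicates 1 and 3 had 680.2 and 728.3 CPM of Bcan, and replicates 2 and 4 had 243.1 and 257.4 CPM. Tnc, Has2, Vcan and Acan had the opposite order, with replicates 2 and 4 above replicates 1 and 3 in each. Hapln4 (30.2, 54, 34.3 and 36.2 CPM in replicates 1 to 4) and Ptprz1 (88.9, 102.0, 83.3 and 118.5 CPM) also had replicates 2 and 4 higher, by smaller margins. Ptprz1 and Ncan differed little among the 4 libraries. The astrocyte markers Aldoc (6745.4, 1487.2, 6342.5 and 1860.9 CPM in replicates 1 to 4) and Gja1 (516.2, 279.7, 573.6 and 295.7 CPM) had the order of Bcan. So did the sum of all astrocyte markers (16343.0, 11041.4, 17023.2 and 13156.9 CPM). That sum includes Aldoc, whose differences between these replicates were about as large as those of the sum. Gfap, at 5757.3, 6488.3, 6403.7 and 7748.5 CPM, had the opposite order, with replicates 2 and 4 higher. Excitatory neuron markers summed to 3297.4, 2170.7, 3590.7 and 2296.9 CPM, also with replicates 1 and 3 the higher ones. Oligodendrocyte markers summed to 1221.1, 3927.6, 1031.6 and 2426.5 CPM and microglia markers to 32.6, 162.3, 36.6 and 87.7 CPM in replicates 1 to 4, the order of Tnc, Has2, Vcan and Acan in that replicates 2 and 4 were the higher ones. Endothelial markers, at 73, 203.9, 58.4 and 74.7 CPM, were likewise higher in replicates 2 and 4, in replicate 4 by little. Mural markers were highest in replicate 2 (1054.7 CPM) and lowest in replicate 4 (487.8 CPM). The part of these cell types in these orders was not tested.

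Markers of cell types differed between the groups as well. All 8 astrocyte markers were lower in Il-17rb-Cre in both comparisons, and their sum was 578.4 to 610.7 CPM there, 6732.9 to 13337.2 CPM in Il-17ra-Cre and 11041.4 to 17023.2 CPM in Il-17rc-Cre. None was at 0, and the defining markers Aqp4 and Gja1 were at 3.43 to 8.16 and 11 to 12.9 CPM in Il-17rb-Cre. Of the 8 markers of oligodendrocyte precursors, 5 were lower in Il-17rb-Cre against Il-17ra-Cre and 4 against Il-17rc-Cre, with sums of 44.2 to 69.3, 638.4 to 1425.7 and 598.5 to 704.1 CPM in Il-17rb-Cre, Il-17ra-Cre and Il-17rc-Cre. Its defining marker Pdgfra was at 0.0563 to 0.772 CPM in Il-17rb-Cre. The part of these cell types in the lower levels of Bcan, Tnc, Ptprz1, Vcan and Has2 was not tested.

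Excitatory neuron markers were high in the Il-17rb-Cre libraries, where Hapln4 was high, and their part in its level was not tested. Within Il-17rb-Cre and within Il-17rc-Cre, Hapln4 was highest in replicate 2, where the marker sum was lowest (17786.6 and 2170.7 CPM). In Il-17ra-Cre both were highest in replicate 3. The sum is weighted to its most abundant marker, Nrgn, with a mean of 6361.3 CPM against 827.6 CPM for Slc17a7. Of the 8 excitatory neuron markers, 7 were higher in Il-17rb-Cre against Il-17ra-Cre and 8 against Il-17rc-Cre. The sums were 17786.6 to 20858.5 CPM in Il-17rb-Cre, 1564.4 to 6718.1 CPM in Il-17ra-Cre and 2170.7 to 3590.7 CPM in Il-17rc-Cre. Parvalbumin interneuron markers, of interest for Acan and Hapln1, summed to 404.0 to 461.5, 167.1 to 307.0 and 388.2 to 509.2 CPM in the same groups. Of these 8, 4 were higher in Il-17rb-Cre against Il-17ra-Cre, and 1 higher and 2 lower against Il-17rc-Cre. Pvalb itself was at 120.5 to 159.7 CPM in Il-17rb-Cre and 80 to 90.7 CPM in Il-17rc-Cre, and 17.9 to 62.5 CPM in Il-17ra-Cre. Acan did not pass in any of these comparisons.

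Mature oligodendrocyte markers, which bear on Tnr and Hapln2, summed to 1005.2 to 1150.0 CPM in Il-17rb-Cre, 5314.4 to 44452.6 CPM in Il-17ra-Cre and 1031.6 to 3927.6 CPM in Il-17rc-Cre. All 8 were lower in Il-17rb-Cre against Il-17ra-Cre, 1 against Il-17rc-Cre, and all 8 were higher in Il-17ra-Cre than in Il-17rc-Cre. Microglia markers summed to 17.9 to 22.2 CPM in Il-17rb-Cre, 527.2 to 918.6 CPM in Il-17ra-Cre and 32.6 to 162.3 CPM in Il-17rc-Cre. Endothelial sums were 1.41 to 7.09, 46.5 to 385.6 and 58.4 to 203.9 CPM, and mural and fibroblast sums 4.3 to 10.2, 134.2 to 196.6 and 487.8 to 1054.7 CPM in Il-17rb-Cre, Il-17ra-Cre and Il-17rc-Cre. The defining markers Tmem119, Cdh5 and Pdgfrb were at 0 in at least 1 Il-17rb-Cre library and in no library of the other groups.

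**Figure D4:**
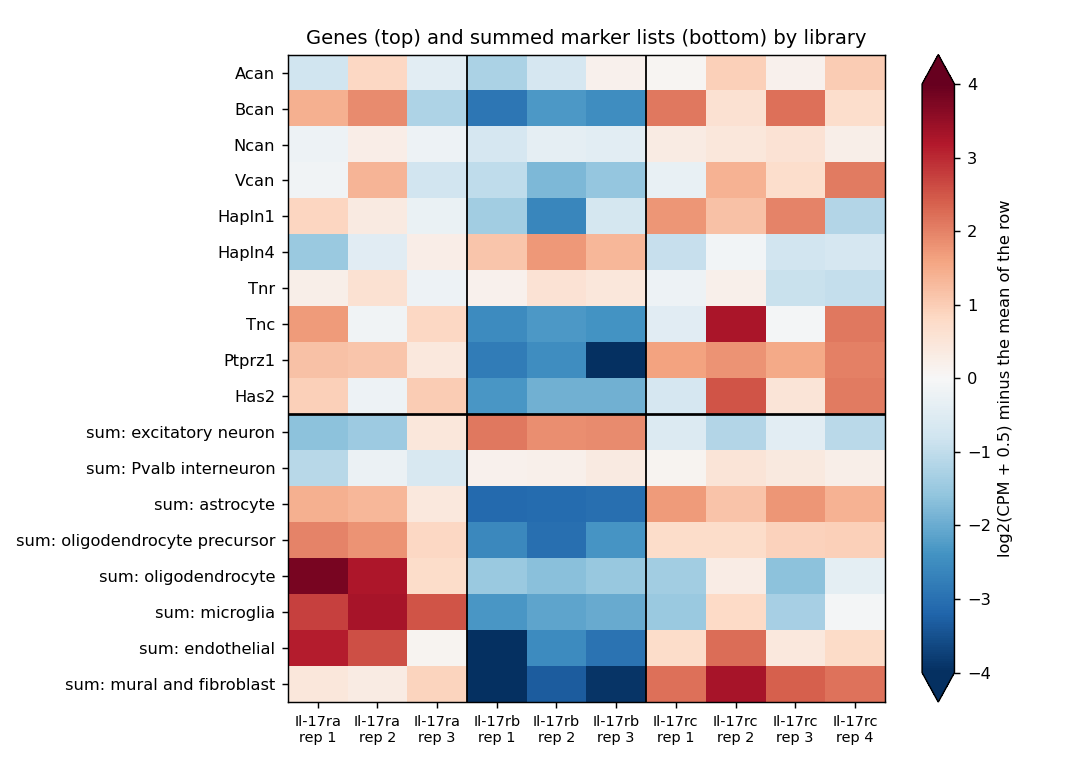
The 10 genes (top) and the summed markers of 8 cell types (bottom) in each library, as log2(CPM + 0.5) minus the mean of the row, with colours limited to ± 4. Hapln4 and the excitatory neuron sum are high in the Il-17rb-Cre libraries, where Bcan, Tnc, Ptprz1 and Has2 and the astrocyte, oligodendrocyte precursor and vessel sums are low.

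The wider matrix list held 80 further genes of net building, sulfation, turnover and reception, of which 78 were tested. In Il-17rb-Cre against Il-17ra-Cre 30 were lower and 12 higher, with a median log2 fold change of -0.61, and against Il-17rc-Cre 32 were lower and 11 higher, with a median of -0.75. Over all tested genes the medians were -0.09 and 0.02 and the shares called 40.7% and 39.7%. Against Il-17ra-Cre 24.4% of all genes were lower and 16.4% higher, and against Il-17rc-Cre 21.9% and 17.7%. The counts by role below are to be read beside these shares, and no role was tested as a set. Higher calls rested on few libraries: without Il-17ra-Cre replicate 2 or Il-17rb-Cre replicate 2 the 12 became 6, and without Il-17ra-Cre replicate 1 or Il-17rb-Cre replicate 3 they became 7. Against Il-17rc-Cre the 11 became 6 without Il-17rb-Cre replicate 2 and 7 without replicate 3.

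Of 12 matrix proteases and their inhibitors, 9 were lower in Il-17rb-Cre against Il-17ra-Cre and 8 against Il-17rc-Cre, and none was higher. Timp1, a secreted inhibitor of matrix metalloproteinases, was at 0.427 to 1.37 CPM in Il-17rb-Cre and at 44.4 to 213.3 CPM in the other 7 libraries. Its log2 fold changes were -6.59 ± 0.81 against Il-17ra-Cre (edgeR adjusted p = 0.000202; -5.84 without Il-17ra-Cre replicate 3) and -7.06 ± 0.82 against Il-17rc-Cre (edgeR adjusted p = 0.000121). Timp2, a related inhibitor, fell against Il-17ra-Cre (-1.34 ± 0.37, edgeR adjusted p = 0.0151), but not without replicate 1 of either group (adjusted p = 0.0524 without that of Il-17ra-Cre and 0.0597 without that of Il-17rb-Cre). Its -0.78 ± 0.34 against Il-17rc-Cre did not pass (edgeR adjusted p = 0.099).

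Of 8 hyaluronan genes other than Has2, 3 were lower in Il-17rb-Cre against Il-17ra-Cre and 4 against Il-17rc-Cre, and none was higher. Cd44, the main cell-surface receptor for hyaluronan, was at 0.787 to 2.13 CPM in Il-17rb-Cre and 39 to 157.5 CPM elsewhere, with log2 fold changes of -5.64 ± 0.64 (edgeR adjusted p = 0.00013) and -5.99 ± 0.64 (edgeR adjusted p = 7.75e-05). Hyal2, a hyaluronidase, was lower by -1.79 ± 0.41 (edgeR adjusted p = 0.0062) and -2.47 ± 0.41 (edgeR adjusted p = 0.000986). The other hyaluronan synthases, Has1 and Has3, passed in no comparison.

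Of 12 enzymes that build the chondroitin sulfate chain, 5 were higher and none lower in Il-17rb-Cre against Il-17ra-Cre, and 2 were higher and 1 lower against Il-17rc-Cre. B3gat3, which completes the linker that joins the chain to its core protein, was at 132.3 to 157.5 CPM in Il-17rb-Cre, 52.8 to 85 CPM in Il-17ra-Cre and 64.7 to 91.5 CPM in Il-17rc-Cre. It was higher by a log2 change of 0.99 ± 0.20 (edgeR adjusted p = 0.00336) and 0.87 ± 0.19 (edgeR adjusted p = 0.00429). Chpf, a chain polymerising factor, was higher against Il-17ra-Cre (0.72 ± 0.21, edgeR adjusted p = 0.0187), a call lost without Il-17ra-Cre replicate 1 or 2 or Il-17rb-Cre replicate 2 or 3 (adjusted p of 0.0614, 0.0699, 0.0646 and 0.0699). Against Il-17rc-Cre it was at 0.41 ± 0.19 (edgeR adjusted p = 0.115).

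Sulfotransferases and epimerases set the sulfation pattern of the chains. Of 9 tested, 1 was higher and 3 were lower in each comparison with Il-17rb-Cre. Over all genes 16.4% and 17.7% were higher and 24.4% and 21.9% lower, and 9 genes are too few to set apart from those shares. Chst12, a 4-O-sulfotransferase, was higher against Il-17rc-Cre (0.79 ± 0.18, edgeR adjusted p = 0.00645, and 0.0521 without Il-17rb-Cre replicate 2) and at 0.49 ± 0.19 against Il-17ra-Cre (edgeR adjusted p = 0.0687). Ust, the uronyl 2-O-sulfotransferase, passed in neither, at 0.41 ± 0.26 (edgeR adjusted p = 0.241) and 0.60 ± 0.24 (edgeR adjusted p = 0.0748). Without Il-17rc-Cre replicate 4 the latter was 0.78 and passed (edgeR adjusted p = 0.0297).

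Other proteoglycans were lower in 11 of 21 against Il-17ra-Cre, with none higher, and in 13 against Il-17rc-Cre, with 2 higher. Sdc4, a cell-surface heparan sulfate proteoglycan, was at 3.24 to 4.13 CPM in Il-17rb-Cre and at 164.4 to 441.2 CPM in the other libraries, and its log2 fold changes were -5.85 ± 0.40 (edgeR adjusted p = 8.62e-06) and -6.43 ± 0.41 (edgeR adjusted p = 3.56e-06). Cspg5, the membrane proteoglycan neuroglycan C, was at 180.9 to 204.0 CPM in Il-17rb-Cre, 269.1 to 320.1 CPM in Il-17ra-Cre and 440.1 to 891.7 CPM in Il-17rc-Cre. It was lower against Il-17rc-Cre (-1.74 ± 0.27, edgeR adjusted p = 0.000632) and did not pass against Il-17ra-Cre (-0.66 ± 0.27, edgeR adjusted p = 0.0768). Within Il-17rc-Cre it had the order of Bcan, with the highest levels in replicates 1 (792.6 CPM) and 3 (891.7 CPM) and 440.1 to 452.6 CPM in the others.

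Receptors and ligands of net components were the only role with as many as 6 genes higher in both comparisons, out of 14, with 3 lower in each. The shares over all genes were 16.4% and 17.7% higher and 24.4% and 21.9% lower. Ptn, the pleiotrophin that binds Ptprz1 through its sulfated chains, was at 292.5 to 305.1 CPM in Il-17rb-Cre, 317.7 to 579.0 CPM in Il-17ra-Cre and 529.0 to 875.2 CPM in Il-17rc-Cre. It was lower against Il-17rc-Cre (-1.14 ± 0.23, edgeR adjusted p = 0.00345) and, against Il-17ra-Cre, passed only without Il-17ra-Cre replicate 3 among the fits that leave out a library (-0.56 ± 0.24, edgeR adjusted p = 0.0885 with it, 0.0175 without). Nptx2, the secreted neuronal pentraxin held in nets, was at 30.1, 48.2 and 231.3 CPM in Il-17ra-Cre, 120.8 to 143.6 CPM in Il-17rb-Cre and 33.8 to 84.9 CPM in Il-17rc-Cre. Against Il-17ra-Cre its log2 fold change of 0.33 ± 0.64 (edgeR adjusted p = 0.717) became 1.73 without Il-17ra-Cre replicate 3 (edgeR adjusted p = 0.00575). Against Il-17rc-Cre it was 1.34 ± 0.60 (edgeR adjusted p = 0.101), and it passed there too without that library (1.34, edgeR adjusted p = 0.00646).

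The link proteins outside the 10 genes were Hapln2, of nodes of Ranvier in white matter, and Hapln3. Hapln2 was at 149.9, 125.3 and 16.3 CPM in Il-17ra-Cre, 5.89, 2.8 and 5.09 CPM in Il-17rb-Cre and 3.79, 9.08, 3.43 and 2.62 CPM in Il-17rc-Cre. Il-17ra-Cre was above both other groups without overlap, replicate 3 least so, in the order of the oligodendrocyte marker sums of those 3 libraries. Hapln2 was lower in Il-17rb-Cre than in Il-17ra-Cre (-4.40 ± 0.80, edgeR adjusted p = 0.00186) and higher in Il-17ra-Cre than in Il-17rc-Cre (4.36 ± 0.71, edgeR adjusted p = 0.0339). The latter call was lost on leaving out any library except Il-17ra-Cre replicate 3 or Il-17rc-Cre replicate 2, with log2 fold changes of 3.83 to 4.32. Hapln3 was at 1.89 CPM or less in Il-17ra-Cre and Il-17rb-Cre and 1.05 to 2.55 CPM in Il-17rc-Cre, and passed in no comparison (edgeR adjusted p = 0.216, 0.084 and 0.76). Its Il-17rb-Cre libraries lay below those of Il-17rc-Cre without overlap (log2 fold change -2.59), as did 25.5% of all genes.

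**Figure D5:**
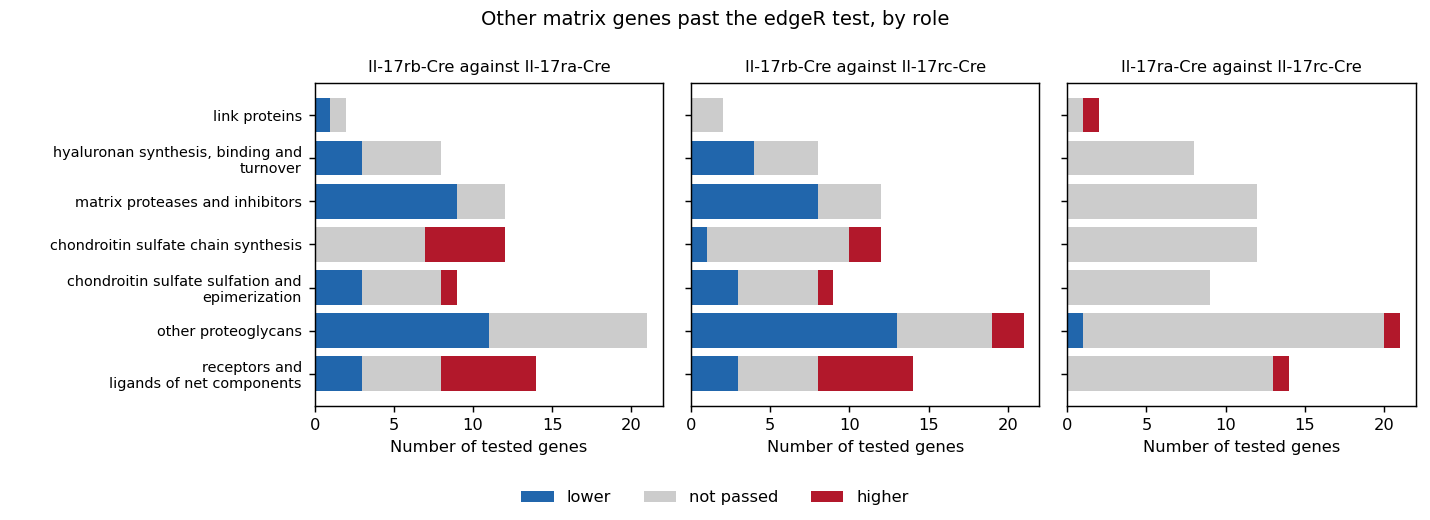
Number of tested genes of the wider matrix list that were lower, not passed or higher (edgeR, adjusted p under 0.05) in each comparison, by role. Proteases and inhibitors and other proteoglycans are mostly lower in Il-17rb-Cre, while chain synthesis and receptors and ligands hold most of the higher genes.

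Genes outside the list were also ranked by how closely their levels followed each member, by the root mean square difference of log2(CPM + 0.5) after centring each gene on its mean over the 10 libraries, among 10220 protein-coding genes. A difference of 0 would be the same profile, and the member's own root mean square about its mean is given as the scale. Closest to Bcan (own value 1.93) were Prodh, Gldc and Aldoc, at 0.31, 0.33 and 0.38. Closest to Ptprz1 (2.19) were Tm4sf1, Il15 and Glis3, at 0.38, 0.40 and 0.45. Plat, the tissue plasminogen activator, was closest to both Has2 (0.41, own value 1.61) and Tnc (0.47, own value 1.90), followed by Adm and Tnfrsf11b for Has2 (0.50 and 0.51) and Cav1 and Ccn1 for Tnc (0.56 and 0.61).

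Closest to Hapln4 (own value 1.02) were Lingo1, Cyb561 and Kcnj3, at 0.18, 0.21 and 0.22. Tnr (0.53) was followed by Atrn, Plekhm3 and Map6, at 0.15, 0.19 and 0.22, and Ncan (0.40) by Afg1l, Nek4 and Hacd3, at 0.15, 0.15 and 0.16. For the remaining members, Vcan (1.26) had Tnfaip3, Myc and Thbs2 at 0.46, 0.57 and 0.61, Hapln1 (1.41) had Tmem144, Chil1 and Nkd1 at 0.69, 0.69 and 0.70, and Acan (0.75) had Ybx3, Atxn7 and Spry1 at 0.38, 0.38 and 0.39. The 10 libraries form 3 groups, so a small difference mostly reflects the same order of groups. It is given as a description without a test.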

How the data were processed

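The deposited table holds raw counts per gene for 10 libraries. The submitters' processing notes name STAR 2.7.5c and GRCm38. Per the labels' protocols, RNA from the GFP pull-down was made into SMART-Seq v4 libraries. What was not given in the sources used here is how reads were trimmed and assigned to genes, the strand setting and the annotation release. All 55536 identifiers matched GENCODE M21, which gave symbols, coordinates and exon lengths.

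Genes that passed edgeR's filterByExpr, with the 3 receptor genes kept in any case, were tested (20301 tested, 35235 removed). Counts were scaled by TMM and fitted in edgeR 4.0.16 (R 4.3.3) by quasi-likelihood. The 10 libraries shared 1 model, and p-values were adjusted over all tested genes by Benjamini-Hochberg, with calls at 0.05. The common dispersion was 0.2387. Groups follow the titles. Errors beside CPM values are standard deviations. Intervals and floors of 3 counts cover counting error only, since PCR copies carry no molecular identifiers. The edgeR test, without the alternatives or the lists, was tried on simulated counts with a lower dispersion than that of these data.

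The 10 genes, the lists of 80 matrix genes and of 8 markers for each of 8 cell types, and the tests were chosen with earlier results of these data known. Named genes were all 10 members, the 2 genes of each matrix role with the highest mean CPM per kb, the defining markers and the 2 most abundant markers of each cell type, and 3 alike genes per member. Alternatives were DESeq2 1.42.0, limma 3.58.1 voom with quality weights, other scaling and filters, 2-group models, replicate blocks, each library left out, and fits with only Il-17ra-Cre replicate 3 or only Il-17rc-Cre replicates 2 and 4 of those groups. Promoter sequences are RefSeq's. Proteins were not used here.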

Additional observations from a re-analysis of the deposited data

How the results depend on the processing

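Of 600 combinations of a member's comparison with an alternative, 579 kept their side of the threshold, 11 lost the call and 10 gained it. Of the 579, 8 changed sign, all in values that passed in neither fit (Acan, Bcan, Vcan, Hapln4, Tnr and Has2), and no called value reversed. With Il-17ra-Cre replicate 3 alone in its group, Il-17rb-Cre against Il-17ra-Cre had 0 members higher and 3 lower, 5 matrix genes higher and 18 lower, and 1464 genes higher and 2728 lower. There Ptprd went from -1.38 to 0.17. With only Il-17rc-Cre replicates 2 and 4, 2305 genes were higher in Il-17rb-Cre against Il-17rc-Cre. Limma voom gave 5085 genes higher in Il-17rb-Cre against Il-17ra-Cre (edgeR 3321) and, against Il-17rc-Cre, 2 members, 20 matrix genes and 5582 genes higher (edgeR 3603).

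Leaving out 1 library gave, for Il-17rb-Cre against Il-17ra-Cre, 1 member higher and 4 to 6 lower, 6 to 16 matrix genes higher and 26 to 32 lower, and 2479 to 4411 genes higher and 4046 to 5505 lower. Against Il-17rc-Cre it gave 1 to 2 members higher and 6 to 7 lower, 6 to 14 matrix genes higher and 27 to 33 lower, and 2221 to 4285 genes higher and 3718 to 4866 lower. The lowest number of higher genes there came without Il-17rb-Cre replicate 2 (2221), followed by replicate 3 (2267).

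Il-17ra-Cre against Il-17rc-Cre was the least stable comparison, at 281 genes higher and 162 lower. Leaving out 1 library gave 0 to 1541 higher and 0 to 1345 lower (both highest without Il-17ra-Cre replicate 3), 0 to 5 matrix genes higher and 0 to 7 lower, and 0 members. DESeq2 gave 972 and 1115 genes, 11 matrix genes lower and 1 member lower. Limma voom gave 2716 and 1863 genes, 7 and 13 matrix genes and 1 member higher. The 1 CPM filter gave 297 genes and 2 matrix genes lower. A model of the 2 groups gave 0 genes higher, 1 lower and 0 matrix genes, and both subsets gave 0 of each. Rpl10a went from 0.18 to -1.71 in limma voom and -1.88 to 0.58 with 1 library left out. These causes were not tested.

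Same-numbered libraries deviated with correlations of -0.083 to 0.181 (2 of 9 above 0.1), so the numbers were not taken as pairs. With the replicate block Vcan against Il-17ra-Cre was -2.56 (edgeR adjusted p = 0.0738) and Hapln1 -2.40 (edgeR adjusted p = 0.0277). With the block by library name Vcan was -2.73 (edgeR adjusted p = 0.11), and Hapln1 against Il-17rc-Cre -2.62 (edgeR adjusted p = 0.108). The 2 blocks gave 0 genes higher and 2 or 1 lower, and 0 matrix genes, between Il-17ra-Cre and Il-17rc-Cre. For Acan, Vcan and Has2, counts in Il-17rb-Cre of 0 to 60 limited precision.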

Other observations

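Chosen after their values were seen, the 3 Nogo receptors of the wider matrix list were each higher in Il-17rb-Cre in both comparisons. Rtn4r was at 8.52, 19.5 and 36 CPM in Il-17ra-Cre, 109.1, 136.6 and 123.3 CPM in Il-17rb-Cre and 28.2, 30.9, 31.4 and 16.6 CPM in Il-17rc-Cre. The log2 fold change of Rtn4r was 2.52 ± 0.45 against Il-17ra-Cre (edgeR adjusted p = 0.00166; 3.14 without Il-17ra-Cre replicate 3) and 2.20 ± 0.40 against Il-17rc-Cre (edgeR adjusted p = 0.00187). Rtn4rl1 was higher by 2.18 ± 0.27 (edgeR adjusted p = 0.000227) and 1.68 ± 0.24 (edgeR adjusted p = 0.000493). Rtn4rl2 was higher by 2.08 ± 0.44 (edgeR adjusted p = 0.00394; 2.93 without Il-17ra-Cre replicate 3) and 1.80 ± 0.39 (edgeR adjusted p = 0.00509). Lingo1, a partner of these receptors, was the gene whose levels followed Hapln4 most closely. Il-17ra-Cre replicate 3 was the highest of its group for Rtn4r, as it was for the excitatory neuron markers and Hapln4.

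Of the matrix list, 4 genes passed between Il-17ra-Cre and Il-17rc-Cre. Besides Hapln2 these were the secreted proteoglycan Spock1 (1.54, edgeR adjusted p = 0.0384) and the receptor phosphatase Ptprd (1.87, edgeR adjusted p = 0.0488), both higher in Il-17ra-Cre, and the glypican Gpc5 (-1.51, edgeR adjusted p = 0.0452), lower. Without Il-17ra-Cre replicate 1 none of these calls held (edgeR adjusted p of 0.122, 0.146, 0.188 and 0.146 for Hapln2, Spock1, Ptprd and Gpc5), nor did they without Il-17ra-Cre replicate 2 (0.126, 0.136, 0.176 and 0.136). All 4 were also lost on leaving out any Il-17rb-Cre library or Il-17rc-Cre replicate 1, 3 or 4 (edgeR adjusted p of 0.0637 to 0.12 for Spock1, 0.0781 to 0.142 for Ptprd and 0.065 to 0.129 for Gpc5), and held without Il-17ra-Cre replicate 3 or Il-17rc-Cre replicate 2.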
